A study of Mus musculus with 6 samples.

Results

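The genes described here are the 4 TEAD transcription factors and 6 genes of the Hippo pathway that act with them. They were measured in the mouse melanoma line 4434, which carries a Braf mutation. The genes are Tead1, Tead2, Tead3 and Tead4, the coactivator genes Yap1 and Wwtr1 (TAZ), the kinase genes Lats1 and Lats2, and the target genes Amotl2 and Ankrd1. All probe sets that the platform annotation gives to exactly 1 of these symbols were taken. This gave 22 of the 45101 probe sets on the array and 10 of the 18193 genes that have a probe set of their own. A further probe set, shared by Lats2 and another gene, was left out. Expression was measured on 6 Affymetrix mouse arrays, 3 of + dox cells and 3 of − dox cells, all at day 20. Cells of both groups carried an inducible lentiviral vector for Oct4, Sox2, Klf4 and a blasticidin resistance gene, and a second lentivirus for the transactivator and mCherry. The + dox cells received doxycycline in reprogramming medium with mLIF and were selected with blasticidin at day 3, whereas the − dox cells received medium without doxycycline. Whether the − dox cells were also selected, or their medium differed in other ways, is not stated. The comparison therefore covers doxycycline, the 3 factors and any difference in selection or medium together, which cannot be told apart. Whether the 3 arrays of each group stand for independent cultures is not stated. All p-values here therefore rest on the spread among these 6 samples, and that spread may be technical.

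The Hippo pathway is a kinase cascade that links cell contact, polarity and mechanical tension to growth. MST kinases activate the LATS kinases, which phosphorylate YAP and TAZ and so keep them out of the nucleus. When the cascade is quiet, YAP and TAZ enter the nucleus and bind TEAD factors, which contact DNA and switch on genes such as Ankrd1, Amotl2, Ccn1 and Ccn2. In melanoma, YAP, TAZ and TEAD are known for their link to invasive, poorly differentiated cells and to resistance against inhibitors of the MAPK pathway. Arrays measure transcript levels and carry no information on phosphorylation or on the place of YAP and TAZ in the cell.

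TEAD factors bind the sequence GGAATG, which reads CATTCC on the other strand. RefSeq promoter windows of assembly GRCm38.p6, from 250 bases before to 50 bases after a gene's start, were searched for it on both strands. A window was given for 8 of the 10 genes, and 6 of them (Yap1, Wwtr1, Tead3, Lats2, Amotl2 and Ankrd1) held the motif, against 4481 of 27025 genes (16.6%). The upstream stretch of Ankrd1 is shown because Ankrd1 is a widely used target gene and its window held the motif at 2 places. Of all windows, 447 of 32851 (1.36%) held it at 2 or more places, among them 1 of Tead3, with 3. Stretches of 26 bases are shown for the coactivators, for Lats2 and for Amotl2, since these genes encode partners, regulators and targets of TEAD factors. Capitals mark the motif. A match is a description of the letters and was not tested as a binding site.
Ankrd1 promoter, chr19:36119845-36120094, minus strand: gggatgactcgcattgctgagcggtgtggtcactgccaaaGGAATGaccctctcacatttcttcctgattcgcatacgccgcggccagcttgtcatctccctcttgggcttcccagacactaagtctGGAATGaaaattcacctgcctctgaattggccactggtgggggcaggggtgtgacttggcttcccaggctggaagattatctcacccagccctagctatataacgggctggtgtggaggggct
Yap1, chr9:8004722-8004747, minus strand: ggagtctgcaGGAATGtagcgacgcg
Wwtr1, chr3:57576031-57576056, minus strand: taaactcaaaGGAATGcagataggcg
Lats2, chr14:57746104-57746129, minus strand: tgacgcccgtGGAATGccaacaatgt
Amotl2, chr9:102717729-102717754, plus strand: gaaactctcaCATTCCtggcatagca
The motifs of Ankrd1 began 210 and 123 bases before the start, that of Yap1 141 bases before it and that of Amotl2 65 bases before it. In Wwtr1 the motif began 170 bases before 1 of its annotated starts, and in Lats2 5 bases after a start. Tead3 held the motif in windows of more than 1 annotated start. Tead1 and Tead4 had no window in the table, and the windows of Tead2 and Lats1 did not hold the motif.

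Values are log2 expression levels as normalised with RMA by the authors, and a change is the mean of + dox minus the mean of − dox. Array medians lay between 5.33 and 5.37. A principal component analysis over genes separated the groups on its first axis (63.2% of the variance), and on the next (20.0%) − dox 1 lay at −40.7, far from − dox 2 and − dox 3 at 19.1 and 19.3. On the first axis + dox 1 lay at −10.5, between + dox 2 and + dox 3 (−41.9 and −54.4) and the − dox arrays (30.7 to 39.6). Over genes, + dox 1 had correlations of 0.9867 with + dox 2 and 0.9839 with + dox 3. Those with − dox 2 and − dox 3 were about as high (0.986 and 0.9841), and that with − dox 1 was 0.9756. The control probe sets for actin and GAPDH differed between groups by 0.03 to 0.11, and all 6 were lowest in − dox 1. The counts of called markers stand beside 886 of all 18193 genes (4.87%), in the gene fit described in the next paragraph. Of the 12 melanocyte markers, 1 was called (8.33%). This was Gpnmb, which fell by 2.62 (adjusted p = 0.0185). Tyr, Tyrp1, Mlana and Gpr143 lay below the lower quartile of all probe sets (3.89) in the data as a whole. Sox10 (6.34 in + dox and 6.23 in − dox cells), Mitf (6.47 and 7.23) and Pmel (5.36 and 5.34) lay above it without a call, as did S100b with a change of 0.25. Dct (4.41 and 4.36), Slc45a2 (4.92 and 5.02) and Ednrb (4.51 and 4.54) also lay above that quartile and were not called. For the other cell types, 1 of 7 keratinocyte markers (Krt14, 14.3%) and 1 of 5 mesothelial markers (Msln, 20%) were called higher. None was called of 7 fibroblast, 6 endothelial and 5 immune markers. In lists this short, 0 or 1 call cannot be told from the 4.87% of all genes. Beside these, the genes of smallest p in their lists were Krt10 (0.55), Col3a1 (−1.35), Dcn (0.85), Tek (1.61), Eng (0.52), Cd74 (−0.50), Itgam (1.17) and Krt19 (1.08), none of them called. Among 8 muscle markers Tnnt2 was called higher and Tnnc1 and Myh3 lower (37.5%, beside 4.87% of all genes). The mean level of the 8 muscle markers was 6.64 to 8.14 in + dox arrays and 8.68 to 9.42 in − dox arrays.

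Tead4 rose in + dox cells, and it was the only gene of the 10 to pass the test. Each gene was represented by its probe set of highest mean, fitted with limma over all 18193 genes and called at an adjusted p under 0.05. Of the 10 genes, 1 was called higher and 0 lower, against 886 of all genes (4.87%), of which 558 were higher (3.07%) and 328 lower (1.80%). Before adjustment 7 of the 10 had a p under 0.05, against 3942 of all genes (21.7%). The groups did not overlap in 2 genes that were higher in + dox cells (Tead4, Wwtr1) and 5 that were lower (Tead1, Tead2, Yap1, Lats1, Ankrd1), against 4890 of all genes (26.9%). The median change of the 10 genes was −0.24, beside 0.01 for all genes. Of the 22 probe sets, each tested on its own, 2 were called higher and 0 lower, both of Tead4, against 1276 of 34945 (3.65%). Their median change was 0.10, beside 0.00 for all probe sets with 1 gene.

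**Figure D1:**
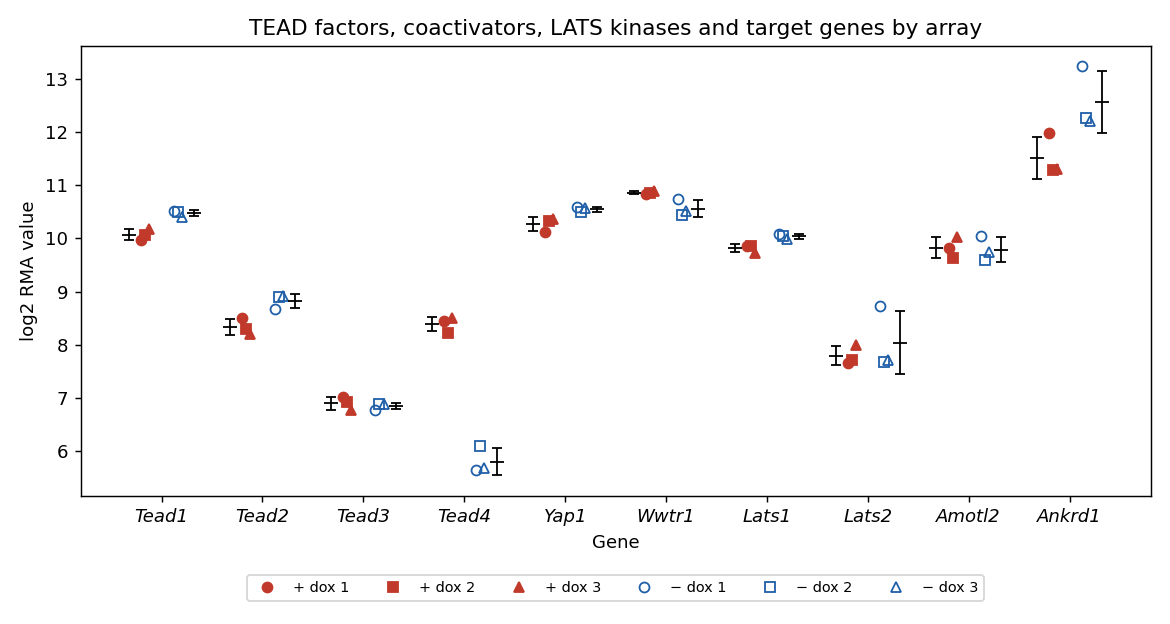
Log2 RMA value (vertical axis) of each gene (horizontal axis) in every array, from the probe set of highest mean. Red filled symbols stand for + dox arrays, blue open ones for − dox arrays, and black bars for the mean ± SD of each group. Tead4 ranged from 8.23 to 8.50 with doxycycline and from 5.64 to 6.10 without it, and − dox 1 was the highest array of Lats2 (8.73) and Ankrd1 (13.24). Levels of different genes are not comparable.

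Tead4 encodes the TEAD factor known for its role in the first lineage decision of the embryo, where it is needed for trophectoderm, and in muscle. Arrays 1, 2 and 3 of the + dox cells gave 8.44, 8.23 and 8.50, and those of the − dox cells gave 5.64, 6.10 and 5.67, in the order also used below. All + dox arrays lay above all − dox arrays, with more than 2 log2 units between the groups. The mean was 8.39 ± 0.14 (SD of 3 arrays) in + dox cells and 5.80 ± 0.26 in − dox cells. The change was 2.59 (SE 0.16, 95% confidence interval 2.21 to 2.96), a 6.01-fold rise with adjusted p = 0.000864 in limma, and Tead4 ranked 27 by p among all genes. In bulk samples, a larger share of cells with Tead4 transcripts and more transcripts per cell cannot be told apart. The second probe set of Tead4 gave 6.90, 6.59 and 6.85 against 5.48, 5.80 and 5.64, again with no overlap. Its change was smaller, at 1.14 (SE 0.13, interval 0.82 to 1.46, 2.20-fold, adjusted p = 0.0133). The call of the gene was present with each array left out (change 2.51 to 2.74, adjusted p 0.00191 to 0.0103). That of the second probe set was lost without + dox 3 (1.10, adjusted p = 0.0721) and without − dox 3 (1.14, adjusted p = 0.0776).

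The other TEAD genes did not pass the test, and the 2 with the clearest separation lay on the opposite side to Tead4. Tead1, a broadly expressed TEAD gene with roles in heart and muscle, had 9.97, 10.06 and 10.17 in + dox arrays and 10.52, 10.50 and 10.41 in − dox arrays. The + dox arrays all lay below the − dox arrays, with a change of −0.41 (SE 0.10, interval −0.64 to −0.18, adjusted p = 0.0646). Its second probe set had the opposite sign, with 5.86, 6.16 and 6.36 against 5.84, 5.77 and 5.84 and a change of 0.31 (adjusted p = 0.283), and with the mean of both probe sets the change was −0.05. A direction for Tead1 therefore depended on the probe set. Tead2, a TEAD gene of the early embryo and neural progenitors, is read by a single probe set. It had 8.50, 8.30 and 8.21 in + dox arrays and 8.67, 8.89 and 8.91 in − dox arrays, with no overlap. Its change was −0.49 (SE 0.12, interval −0.78 to −0.20, adjusted p = 0.0752). Tead2 was called without + dox 1 (−0.57, adjusted p = 0.0467) and without both arrays numbered 1 (−0.65, adjusted p = 0.00967). Tead3, known from placenta, had 7.01, 6.92 and 6.78 against 6.78, 6.88 and 6.88, and the groups overlapped. Its change of 0.06 had an interval of −0.18 to 0.30 (adjusted p = 0.811), so a change beyond about 0.30 in either direction lay outside it.

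Neither coactivator gene was called, and their representative probe sets had opposite signs. Yap1 encodes YAP, the main coactivator of TEAD factors. It had 10.12, 10.33 and 10.37 in + dox arrays and 10.59, 10.50 and 10.57 in − dox arrays, so the + dox arrays were lower with no overlap. The change was −0.28 (SE 0.10, interval −0.53 to −0.03, adjusted p = 0.180). The second Yap1 probe set had 9.21, 9.46 and 9.34 against 8.13, 9.38 and 9.06, with − dox 1 far below the rest. Its change was 0.48 (adjusted p = 0.449), and without − dox 1 it was 0.12 (adjusted p = 0.704). The sign of Yap1 thus differed between its probe sets, and the mean of both gave 0.10.

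Wwtr1 encodes TAZ, the paralogue of YAP, and was the 1 gene besides Tead4 whose probe sets all lay higher in + dox cells without overlap. Its representative probe set had 10.83, 10.85 and 10.89 in + dox arrays and 10.74, 10.44 and 10.51 in − dox arrays. The change was 0.29 (SE 0.11, interval 0.03 to 0.55, adjusted p = 0.181). The other probe sets had 9.89, 10.24 and 10.29 against 9.42, 9.73 and 9.40, and 9.38, 9.92 and 9.91 against 9.03, 9.27 and 9.04. In both, + dox 1 was the lowest + dox array and lay nearest to the − dox cells. Their changes were both 0.62, with adjusted p = 0.0804 and 0.105. Without + dox 1 these 2 probe sets were called (0.75, adjusted p = 0.0387, and 0.80, adjusted p = 0.0217), as they were without both arrays numbered 1 (0.70 and 0.76, adjusted p = 0.0252 and 0.0130).

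**Figure D2:**
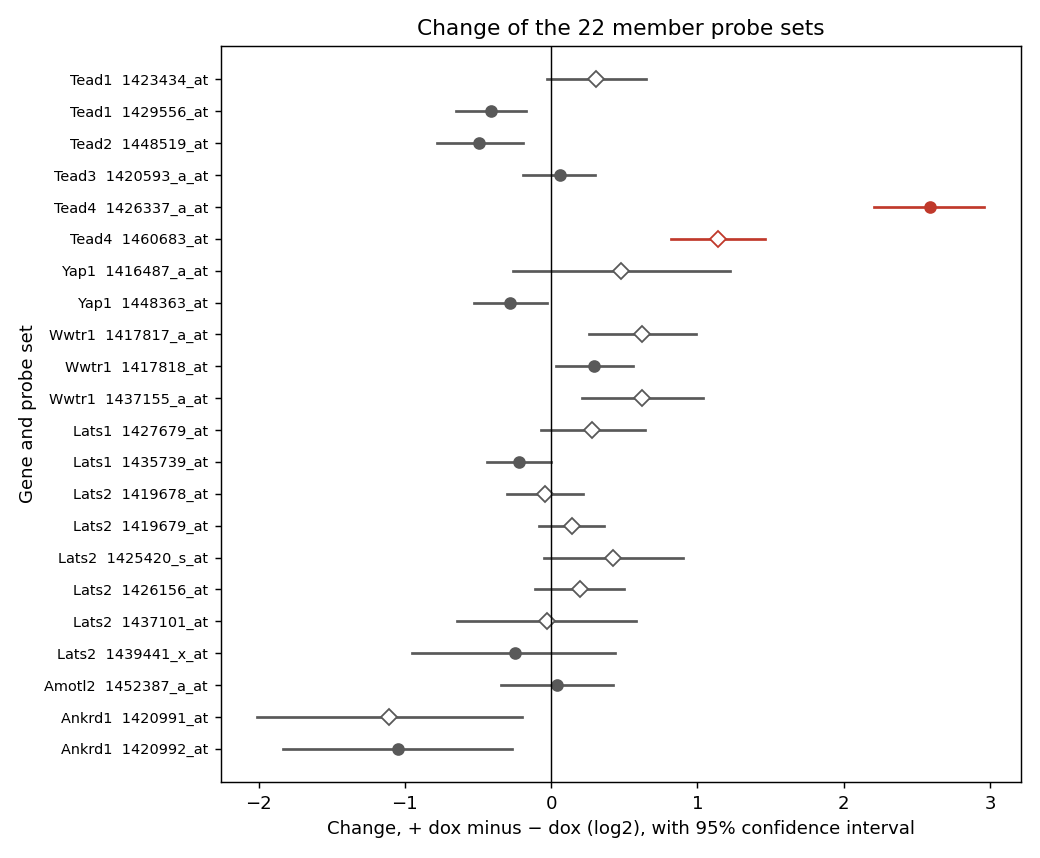
Change of each of the 22 probe sets (+ dox minus − dox, log2, horizontal axis) with its 95% confidence interval, listed by gene and probe set (vertical axis). Filled circles represent the gene in the gene fit, open diamonds are its other probe sets, and red marks an adjusted p under 0.05. Both Tead4 probe sets (2.59 and 1.14) are red, while Tead1, Yap1 and Lats1 each have a probe set on either side of 0.

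The LATS kinases, which restrain YAP and TAZ, showed no called change. Lats1 had 9.86, 9.86 and 9.73 in + dox arrays and 10.08, 10.04 and 9.99 in − dox arrays. The + dox arrays were lower without overlap, by a change of −0.22 (SE 0.09, interval −0.44 to 0.00, adjusted p = 0.222). Its second probe set had 4.63, 4.71 and 5.05 against 4.33, 4.63 and 4.58 with a change of 0.28 (adjusted p = 0.351), so the 2 probe sets of Lats1 had opposite signs as well. Lats2, itself a known target of YAP and TAZ in a feedback loop, had 6 probe sets, with changes between −0.25 and 0.42 and none called. In the representative probe set the values were 7.66, 7.71 and 7.99 in + dox arrays and 8.73, 7.68 and 7.71 in − dox arrays. Array − dox 1 lay 1.04 above the mean of − dox 2 and − dox 3, and these 2 lay among the + dox arrays. The change of Lats2 was −0.25 (SE 0.29, interval −0.95 to 0.45, adjusted p = 0.692), and without − dox 1 it was 0.09 (adjusted p = 0.746). A further Lats2 probe set had 6.89, 6.91 and 7.07 against 7.59, 6.64 and 6.73, with − dox 1 again the highest. The Lats2 probe set with the highest change had 5.64, 5.82 and 5.88 against 5.77, 5.28 and 5.02 (0.42, adjusted p = 0.294), and it was called without both arrays numbered 1 (0.70, adjusted p = 0.0193). The remaining Lats2 probe sets had changes of −0.04, 0.14 and 0.20, and that with 0.14 was the only 1 of the 22 with a mean below that lower quartile (3.89).

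Of the target genes, Amotl2 gave no detectable difference and Ankrd1 lay lower in + dox cells without passing the test. Amotl2 encodes an angiomotin that binds YAP and TAZ and is induced by them as a feedback. It had 9.83, 9.64 and 10.02 in + dox arrays and 10.05, 9.59 and 9.74 in − dox arrays, which overlapped. Its change was 0.04 (SE 0.16, interval −0.34 to 0.42, adjusted p = 0.932).

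Ankrd1, the gene of a cardiac and muscle ankyrin repeat protein and a widely used readout of YAP and TAZ, had 11.98, 11.29 and 11.30 in + dox arrays and 13.24, 12.27 and 12.21 in − dox arrays. Every + dox array lay below every − dox array, and array 1 was the highest within each group, by 0.69 in + dox and 1.0 in − dox cells over the mean of the other two. The change was −1.05 (SE 0.33, interval −1.83 to −0.27, 2.07-fold lower, adjusted p = 0.125). The second probe set had 12.04, 11.24 and 11.17 against 13.35, 12.32 and 12.10, the same order of groups, with a change of −1.11 (interval −2.01 to −0.20, adjusted p = 0.164). Ankrd1 was at −0.72 without − dox 1 (adjusted p = 0.120) and at −1.28 without + dox 1 (adjusted p = 0.0755), and it was not called in either fit. Without both arrays numbered 1 it was called at −0.94 (adjusted p = 0.00226). The 8 muscle markers all had a p under 0.05 before adjustment, beside 21.7% of all genes, and 3 of them were called. Their median change was −2.24, and 1 of them, Tnnt2, had a change above 0. Acta1, skeletal muscle actin, had 9.45, 6.90 and 6.87 in + dox arrays and 10.79, 10.65 and 10.84 in − dox arrays. In + dox 1 Acta1, Myod1, Myog, Actc1, Tnnc1, Myh3 and Des were, like Ankrd1, highest among the + dox arrays, while Tnnt2 was lowest there (10.92). In − dox 1, the highest array of Ankrd1, Myod1 (9.29), Myog (8.08), Actc1 (7.46) and Myh3 (7.33) were the lowest of the − dox arrays. Des (7.74) was the highest there, like Ankrd1. Acta1 (10.79), Tnnc1 (8.86) and Tnnt2 (9.92) lay between − dox 2 and − dox 3. The part of muscle gene expression in the Ankrd1 values was not tested.

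The rest of the cascade was described with a list of core and upstream genes, of which 41 of 42 were measured, Stk3 being not analysed here. Of these, 2 were called higher and 0 lower (4.88%), a share near the 4.87% of all genes, and the median change was −0.05. Before adjustment 13 had a p under 0.05, beside 21.7% of all genes. The groups did not overlap in 6 genes that were higher and 8 that were lower, beside 26.9% of all genes. Llgl2, a polarity gene of the basolateral side, had 7.16, 6.92 and 7.11 in + dox arrays and 6.09, 6.11 and 6.12 in − dox arrays. It rose by 0.96 (SE 0.10, adjusted p = 0.00764), and the call was lost without − dox 2 (0.96, adjusted p = 0.0501) and without − dox 3 (0.96, adjusted p = 0.0525). Stk38l, a kinase gene related to the LATS kinases, had 8.39, 8.66 and 8.37 against 7.94, 7.92 and 7.92. It rose by 0.55 (SE 0.11, adjusted p = 0.0446) and was called without + dox 1, while leaving out any other single array ended the call (0.45 to 0.60, adjusted p 0.0585 to 0.157). Of the central components, the MST kinase gene Stk4 had a change of 0.02 (adjusted p = 0.961), its scaffold Sav1 −0.31 (adjusted p = 0.165) and the upstream gene Nf2 −0.09 (adjusted p = 0.662). The polarity and adhesion genes Dchs1 (−0.56, adjusted p = 0.0550) and Fat1 (0.74, adjusted p = 0.184) lay on opposite sides of 0 without a call. Without both arrays numbered 1, 11 genes of this list (26.8%) were called, Dchs1 (−0.45, adjusted p = 0.0363) and Fat1 (0.75, adjusted p = 0.00993) among them, beside 3649 of all genes (20.1%).

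**Figure D3:**
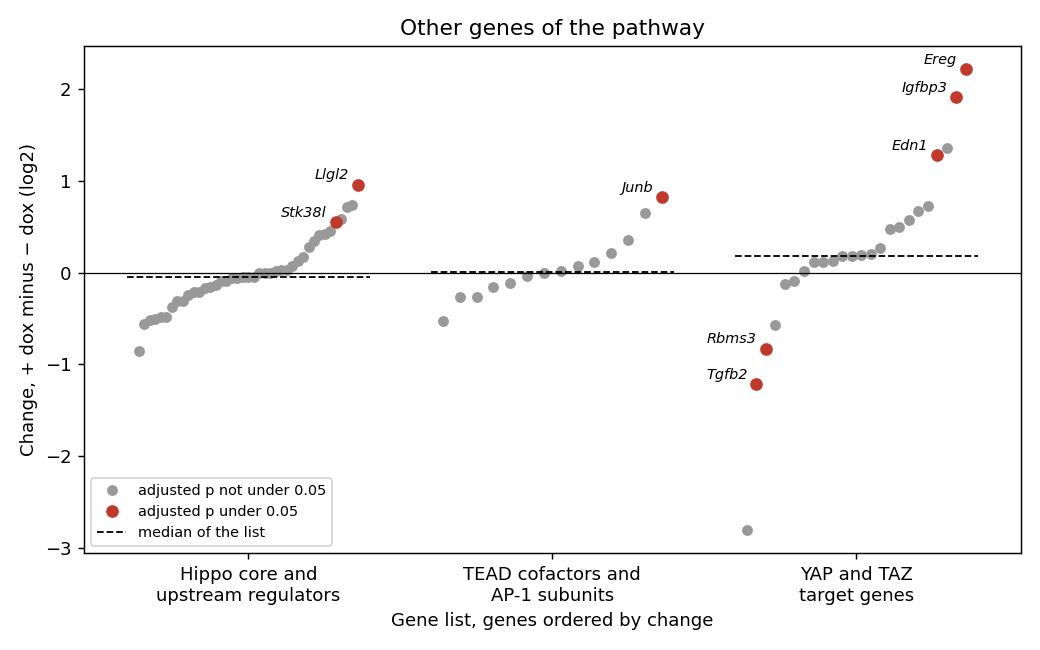
Change of every measured gene (+ dox minus − dox, log2, vertical axis) in 3 lists (horizontal axis, genes ordered by change), with the list median as a dashed line. Red points have an adjusted p under 0.05 and are named. Called genes are 2 of 41 core and upstream genes, 1 of 14 cofactor and AP-1 genes and 5 of 24 target genes, and the medians are −0.05, 0.01 and 0.19.

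TEAD factors also bind vestigial-like cofactors, and share many regulatory regions with AP-1, the dimers of FOS and JUN proteins. Of 14 such genes, 1 was called higher and 0 lower (7.14%, beside 4.87% of all genes), and 3 had a p under 0.05 before adjustment (beside 21.7%). The median change was 0.01, like that of all genes. Junb, an AP-1 subunit, had 9.44, 9.42 and 9.68 in + dox arrays and 8.50, 9.03 and 8.56 in − dox arrays. It rose by 0.82 (SE 0.17, adjusted p = 0.0473), and leaving out any 1 of the 6 arrays ended the call (0.72 to 0.98, adjusted p 0.0530 to 0.170). Vgll3, the vestigial-like gene with the smallest p, had 9.25, 8.48 and 8.74 against 8.45, 7.93 and 8.13. Its + dox arrays were higher with no overlap, and the change was 0.65 (adjusted p = 0.159). It was called without both arrays numbered 1 (0.58, adjusted p = 0.0331). Vgll1, Vgll2 and Vgll4 had changes of 0.11, −0.11 and −0.04.

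Other target genes of YAP and TAZ moved in both directions. The list has 24 measured genes. Called genes were 3 higher and 2 lower (20.8%), beside 4.87% of all genes. Before adjustment 12 had a p under 0.05, beside 21.7% of all genes. The groups did not overlap in 8 genes that were higher and 3 that were lower, beside 26.9% of all genes. The list median was 0.19, and 18 of the 24 changes were above 0. The largest change was that of Nt5e (−2.81, adjusted p = 0.134), which was not called. Nt5e had 7.31, 5.09 and 3.64 in + dox arrays and 8.93, 8.07 and 7.46 in − dox arrays. Ereg, the gene of the EGF receptor ligand epiregulin, had 10.47, 9.78 and 10.34 in + dox arrays and 8.07, 8.13 and 7.72 in − dox arrays. The groups lay more than 1 log2 unit apart, and Ereg rose by 2.22 (SE 0.21, adjusted p = 0.00537), with a call whichever array was left out (adjusted p 0.00548 to 0.0359). Edn1, the gene of the peptide endothelin-1, had 6.07, 5.92 and 6.59 against 4.83, 5.0 and 4.92. It rose by 1.28 (SE 0.18, adjusted p = 0.0182), and the call was lost without − dox 2 (1.32, adjusted p = 0.0727) and without − dox 3 (1.28, adjusted p = 0.0873). Igfbp3, which encodes a binding protein of insulin-like growth factors, had 9.99, 9.12 and 8.70 against 6.87, 7.74 and 7.47 and rose by 1.91 (SE 0.37, adjusted p = 0.0406). Tgfb2, a ligand of the TGF-beta family, had 7.81, 7.41 and 7.23 against 8.99, 8.29 and 8.82 and fell by 1.22 (SE 0.23, adjusted p = 0.0376). Rbms3, an RNA-binding protein gene, had 8.78, 8.44 and 8.59 against 9.41, 9.19 and 9.70 and fell by 0.83 (SE 0.16, adjusted p = 0.0414). The changes of these 3 genes kept their sign with 1 array left out (1.55 to 2.19 for Igfbp3, −1.42 to −1.07 for Tgfb2 and −0.95 to −0.70 for Rbms3), while the calls did not all remain. Igfbp3 and Rbms3 were called without + dox 1 and lost without any other single array (adjusted p 0.0517 to 0.133 and 0.0533 to 0.149). Tgfb2 was called without either array numbered 1 and lost without each of the others (adjusted p 0.0553 to 0.142).

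The classical reporter genes among the targets showed no called change. Ccn2 (CTGF) had 9.71, 9.34 and 9.48 in + dox arrays and 10.13, 8.70 and 9.34 in − dox arrays, which overlapped, with a change of 0.12 (adjusted p = 0.895). Ccn1 (CYR61) had 11.44, 11.14 and 10.57 against 12.60, 10.84 and 10.11, with a change of −0.13 (adjusted p = 0.937). In both, the − dox arrays spanned the whole range of the + dox arrays, from − dox 1 as the highest value of all. Axl, a receptor tyrosine kinase gene linked to invasive melanoma cells, had a change of 0.19 (adjusted p = 0.667), which was 0.36 without − dox 1 (adjusted p = 0.284), 0.33 without + dox 1 (adjusted p = 0.430), 0.08 without + dox 2 (adjusted p = 0.914) and 0.04 without − dox 3 (adjusted p = 0.956). Without both arrays numbered 1 Axl was called at 0.50 (adjusted p = 0.0479).

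Array − dox 1 bore on several of these genes. It was the highest of the 6 arrays in 6 of the 10 genes described first and in 16 of the 41 core and upstream genes. The same held in 8 of the 14 cofactor and AP-1 genes, in 7 of the 24 targets and in 4250 of all 18193 genes (23.4%). It lay more than 1 log2 unit above the mean of − dox 2 and − dox 3 in 1 of the 10 genes, in 2 of 41, in 4 of 14, in 6 of 24 and in 528 of all genes (2.90%). Among them were Fos, with 9.52, 9.35 and 9.75 in + dox arrays and 10.56, 8.91 and 8.08 in − dox arrays, and Atf3, a stress-induced partner of AP-1, with 6.62, 6.32 and 6.71 against 8.36, 6.06 and 6.05. Gadd45a, a growth arrest gene in the target list, had 10.11, 10.57 and 9.99 against 12.14, 10.17 and 10.07. Without − dox 1 the changes of Ccn1, Atf3 and Gadd45a went from below to above 0 (−0.13 to 0.58, −0.27 to 0.50 and −0.57 to 0.10), and none of them was called. Fosb, an AP-1 subunit, had 4.87, 4.82 and 5.03 against 6.16, 3.91 and 4.02, and F3, the tissue factor gene of the target list, had 7.72, 7.35 and 6.95 against 6.98, 5.47 and 5.48. Both were called only without − dox 1, alone or with + dox 1: without − dox 1 Fosb went from 0.21 (adjusted p = 0.890) to 0.94 (adjusted p = 0.0125) and F3 from 1.36 (adjusted p = 0.133) to 1.86 (adjusted p = 0.0121). What these genes share with Lats2 and Ankrd1 in − dox 1 was not tested.

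**Figure D4:**
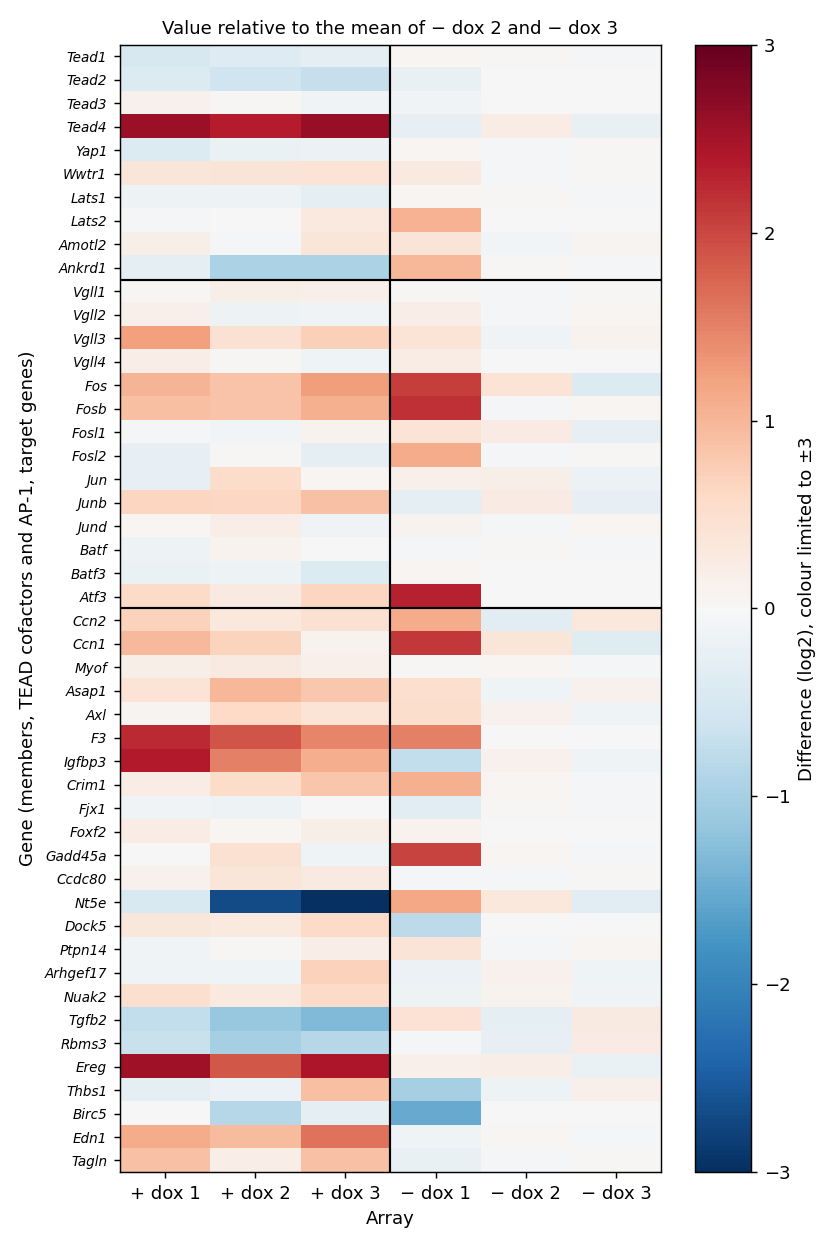
Value of each gene (rows) in each array (columns) minus the mean of − dox 2 and − dox 3, as colour on a log2 scale limited to ±3. Horizontal lines separate the 10 TEAD and Hippo genes, the cofactors and AP-1 genes, and the target genes. Tead4 and Ereg are red in all 3 + dox arrays, while Lats2, Ankrd1, Fos, Atf3, Ccn1 and Gadd45a are red in − dox 1.

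The 5 genes whose values over the 6 arrays were most like those of Tead4, by Pearson correlation over all 18193 genes, were Nppb (0.9968), Hspa1b (0.9967), Zdhhc13 (0.9965), Anxa8 (0.9963) and Plekhf2 (0.9954). These values describe a likeness over arrays that fall into 2 groups, so any gene with a large difference and little spread comes close to it, and no test was made. The changes of these genes ran from 0.70 in Plekhf2 to 7.51 in Nppb, beside 2.59 in Tead4. In each of them − dox 2 was the highest − dox array, as it was for Tead4. The genes were picked by their likeness to Tead4 over these same arrays, so this shared order is no separate finding.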

How the data were processed

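Total RNA of 6 samples was hybridised to Affymetrix mouse genome arrays. The deposited values are log2 expression values that the authors normalised with RMA in Chipster (version and chip definition file not given in the sources used here). RMA makes the distributions of arrays equal, so a shift of all genes cannot be seen. The log2 scale was read from the use of RMA and from values between 2.08 and 14.44, and scanner files were not used here. Probe sets were named by the 2016 platform annotation, with 0 symbols changed by RefSeq (GRCm38.p6). Of the probe sets, 34945 had 1 gene, 932 several and 9160 none, and 64 controls were left out. The probe set with the highest mean represented a gene. The 2 groups, taken from the labels, were fitted with limma (version 3.58.1, R version 4.3.3; functions lmFit and eBayes, two-sided, no term but the group) and Benjamini-Hochberg adjustment over all 18193 genes, or over all 34945 probe sets where a probe set other than the representative is given. Scripts were tested on simulated data. The number of arrays limits the precision.

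The genes and lists were chosen with earlier results of these data known. Named were the 10 genes with all probe sets, of each other list at most 4 called genes by size of change (if under 2 were called, the 2 genes of smallest p), and the 5 genes most like Tead4. Rbms3, Ccn1, Ccn2, Axl, F3, Nt5e, Fos, Fosb, Atf3, Gadd45a, Acta1, Myod1, Myog and Actc1 were picked outside this rule with their values in view. So were Des, Stk4, Sav1, Nf2, Dchs1, Fat1, Vgll1, Vgll2, Vgll4, the uncalled melanocyte markers other than S100b and the remaining trophectoderm genes. As alternatives, the replicate number was added as a block, a gene was represented by the mean of its probe sets or the most variable one, the dimmest 20% or 40% of probe sets were left out, and the columns were quantile normalised or median centred. Trend and robust settings of eBayes, arrays left out, a threshold of 0.01 and the treat test of limma for changes beyond 2-fold were tried as well.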

Additional observations from a re-analysis of the deposited data

How the results depend on the processing

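The call and direction of Tead4 were present in all 16 alternatives (change 1.86 to 2.74, adjusted p 0.000382 to 0.0215). Counts of called genes moved far more. Over all genes (886) the count was 303 with the replicate block, 128 at an adjusted p under 0.01, 51 with the treat test for changes beyond 2-fold, 3649 without both arrays numbered 1 and 118 to 1650 with 1 array left out. Of the 10 TEAD and Hippo genes, 2 were called with the replicate block (Tead4 and Ankrd1, the latter at −1.05, adjusted p = 0.0460), 3 without both arrays numbered 1 and 1 to 2 with 1 array left out, and of the 22 probe sets 8 and 1 to 4 in these last settings. With the block 3 probe sets were called, the representative of Tead4 (adjusted p = 0.0207) and both of Ankrd1, while the second of Tead4 was not (1.14, adjusted p = 0.0562). For the core and upstream list (2) the counts were 1 with the block, 1 with trend and robust settings, 11 without both arrays, 1 at 0.01, 0 with treat and 0 to 6 with 1 array left out. For cofactors and AP-1 (1) they were 0 with the block, with the probe set of largest variance, with trend and robust settings, with quantile normalisation, at 0.01 and with treat, 4 without both arrays and 0 to 1 with 1 array left out. For targets (5) they were 1 with the block, 9 without both arrays, 1 at 0.01, 0 with treat and 1 to 5 with 1 array left out. Uncalled changes that turned sign were those of Yap1 (0.10 with the mean of its probe sets, 0.48 with that of largest variance), Lats1 (0.03 and 0.28) and Lats2 (0.07 with the mean). Without both arrays numbered 1, Tead3 turned to −0.03, Lats2 to 0.15, Ccn1 to 0.38, Atf3 to 0.46 and Gadd45a to 0.16. With 1 array left out, Lats2 ranged from −0.43 to 0.09, Amotl2 from −0.06 to 0.17, Ccn1 from −0.67 to 0.58, Ccn2 from −0.23 to 0.49, Fos from −0.20 to 1.04, Fosb from −0.18 to 0.94, Atf3 from −0.66 to 0.50 and Gadd45a from −0.93 to 0.10. The cause was not tested. Same-numbered arrays had correlations of their deviations of −0.12, −0.22 and 0.08, and arrays of unlike number had −0.35 to 0.34. With so few arrays these values cannot decide whether same-numbered arrays belong together, and this was not tested.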

Other observations

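Tead4 is known for its part in trophectoderm, the first outer lineage of the embryo, and 10 genes of that lineage were measured. Plet1, expressed in placenta and epithelial progenitors, was the 1 gene called, beside 4.87% of all genes, with 10.33, 10.82 and 11.69 in + dox arrays and 3.54, 4.61 and 3.94 in − dox arrays, the latter near the low end of the scale. It rose by 6.92 (SE 0.40, adjusted p = 0.000741), and by 4.23 with the mean of its probe sets (adjusted p = 0.000957). Gata3, a transcription factor of trophectoderm and of several epithelia, had 6.87, 8.28 and 8.20 against 6.75, 5.69 and 5.77. Its + dox arrays were higher without overlap, though + dox 1 and − dox 1 nearly met, and its change of 1.71 was not called (adjusted p = 0.0867). Without + dox 1 (2.17, adjusted p = 0.0190) or − dox 1 (2.05, adjusted p = 0.0456) it was. The lineage factors Cdx2, Eomes, Elf5 and Tfap2c had changes of 0.13, 0.16, 0.21 and 0.14, and Krt8 and Krt18 of 0.12 and 0.11, and none of these was called. Elf5 and Krt18 had means below the lower quartile of all probe sets (3.89). Elf5 was higher without overlap (3.67, 3.67 and 3.68 against 3.46, 3.39 and 3.55). In the list the groups did not overlap in 3 genes that were higher and 2 that were lower, beside 26.9% of all genes. Tfap2a, with 7.65, 7.28 and 7.19 against 8.45, 7.88 and 7.94, and Esrrb, with 5.81, 5.85 and 5.83 against 6.03, 5.91 and 6.05, were lower in + dox cells without overlap. Their changes of −0.72 (adjusted p = 0.0942) and −0.17 (adjusted p = 0.346) were not called. The median change of the 10 genes was 0.13.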
